A study of Mus musculus with 44 samples.

Results

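The Btg, Tob and Zfp36 genes of the mouse were followed through neuronal stimulation, brain development and light exposure of the visual cortex. The members were chosen by gene family, with earlier results of these data in view: all rows whose RefSeq accession belongs to Btg1, Btg2, Btg3, Tob1, Tob2, Zfp36, Zfp36l1 or Zfp36l2, which are 8 of the 17158 genes listed in all. Of the 8, 7 were listed in the RNA-seq and ribosome-footprint libraries, and Btg3 only in the tail-length libraries.

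Proteins of the BTG and TOB family bind the CAF1 nuclease (Cnot7 or Cnot8) of the CCR4-NOT complex, the main cytoplasmic deadenylase. Proteins of the Zfp36 family bind AU-rich elements in 3′ UTRs through a pair of zinc fingers and bring the same complex to the mRNA, so that both families promote shortening of poly(A) tails and mRNA decay. Several of the genes are themselves transcribed quickly after growth factors or synaptic activity: Btg2 and Zfp36 are classical immediate-early genes, and Btg2 is also known for marking neural progenitors that are about to make neurons.

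The study measured mRNA by RNA-seq, ribosome-protected fragments (RPFs) by ribosome profiling, and poly(A)-tail lengths by TAIL-seq or PAL-seq v2, in which each sequenced mRNA 3′ end (a tag) carries a tail length. Primary cortical cultures of C57BL6J mouse pups, grown with cytosine arabinoside against dividing cells, were left unstimulated or exposed for 30 min to BDNF or to glutamate plus glycine (glu/gly) at 14 days in vitro (DIV14), or depolarized with KCl for 10 or 30 min at DIV10 beside their own unstimulated culture. Other cultures received at day 5 a lentivirus with a synapsin promoter that expressed GFP alone, miR-1 or miR-155, and were collected at DIV14. The tissues were adult hippocampus and adult cortex, each of 1 male mouse, hippocampi of embryos at embryonic day 16, and the visual cortex of 8 mice of 6 to 7 weeks kept in the dark for 1 week, of which 4 stayed dark and 4 then saw light for 1 hour. Each culture or tissue gave 1 library per assay, so values outside the visual cortex have no replicates, and the 95% intervals given with them are exact Clopper-Pearson intervals that cover counting error alone. Of 44 libraries 42 had a clear group, and RPFs of both miRNA cultures went uncompared because their labels contradict each other.

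Reads on genes numbered 448022 to 7689624 in the 12 RNA-seq libraries, 817114 to 23212489 in the 12 RPF libraries, 86841 to 1057812 tags in the 12 tail-length libraries of cultures and tissues, and 1233538 to 4812273 tags in the 8 visual-cortex libraries. Levels are counts per 1000000 reads or tags on genes (CPM). In the cultures neuronal markers summed to 2720 to 3540 RNA-seq CPM and astrocyte markers to 1030 to 1980, with microglial markers at 0.474 to 18.5. Dark mice 3 and 4 stood apart from the other dark mice: Fos, which encodes an immediate-early transcription factor, had 8.21 and 19.1 CPM in dark mice 1 and 2 but 54.6 and 152 in dark mice 3 and 4, against 470 to 990 in the light mice. Member values in the visual cortex are therefore also given without them, a choice made after these values were seen.

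All 8 members lie on different chromosomes. In RefSeq on GRCm38.p6, Btg1 spans chr10:96617001-96622813, Btg2 chr1:134074865-134079155, Btg3 chr16:78359860-78377181, Tob1 chr11:94209842-94215495, Tob2 chr15:81848270-81858326, Zfp36 chr7:28376784-28379228, Zfp36l1 chr12:80107760-80113013 and Zfp36l2 chr17:84183924-84187947.

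The promoters of Btg2, Zfp36 and Tob1 are shown because Btg2 and Tob1 had the largest RPF ratios of the family after BDNF, and Btg2 and Zfp36 after glu/gly and KCl. Each is the 250 bases before the RefSeq start (GRCm38.p6), 5′ to 3′ on the gene's strand, with motif matches in capitals, and for Tob1 the start is that of a transcript that begins inside the span given above:
Btg2, chr1:134079156-134079405, minus strand: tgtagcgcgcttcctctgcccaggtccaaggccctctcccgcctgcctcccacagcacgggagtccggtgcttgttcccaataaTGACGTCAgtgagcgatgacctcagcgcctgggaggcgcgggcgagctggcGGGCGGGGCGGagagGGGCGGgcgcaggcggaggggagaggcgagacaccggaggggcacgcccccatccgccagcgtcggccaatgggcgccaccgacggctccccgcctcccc
Zfp36, chr7:28379229-28379478, minus strand: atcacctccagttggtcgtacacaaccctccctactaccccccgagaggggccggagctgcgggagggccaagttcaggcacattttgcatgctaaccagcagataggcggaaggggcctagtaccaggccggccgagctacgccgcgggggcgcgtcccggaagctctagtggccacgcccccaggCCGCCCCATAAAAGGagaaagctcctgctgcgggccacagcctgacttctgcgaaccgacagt
Tob1, chr11:94211204-94211453, plus strand: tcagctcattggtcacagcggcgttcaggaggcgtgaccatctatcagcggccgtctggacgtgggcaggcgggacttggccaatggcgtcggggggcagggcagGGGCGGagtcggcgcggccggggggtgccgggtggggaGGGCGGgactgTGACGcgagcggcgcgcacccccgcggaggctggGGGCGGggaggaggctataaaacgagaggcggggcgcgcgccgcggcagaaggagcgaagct
On either strand of the window from 250 bases before to 50 after the start, 4 motifs were searched: the CArG box bound by serum response factor, the cAMP response element TGACGTCA, its core TGACG, and the Sp1 box GGGCGG. The Btg2 promoter holds TGACGTCA 166 bases before the start and Sp1 boxes 115, 110 and 100 bases before it, the first pair overlapping. The Zfp36 promoter holds a CArG box 58 bases before the start, which shares 1 base with an Sp1 box on the other strand at 63. The Tob1 promoter holds TGACG at 96 and Sp1 boxes at 145, 107 and 62. Of 32851 RefSeq promoters, 1.63% hold a CArG box, 1.79% TGACGTCA, 20.8% TGACG and 35.7% GGGCGG. Among the members with a promoter entry, Btg2 had the sole TGACGTCA and Zfp36 the sole CArG box.

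The 3′ UTRs of the 8 members were searched for the AU-rich element that Zfp36 proteins bind, and most of them hold its core. TATTTAT, the core of the AU-rich nonamer, occurs 3 times in the 3′ UTRs of Zfp36, Zfp36l1 and Zfp36l2, 2 times in Btg3, 1 time in Btg2 and Tob2, and not in Btg1 or Tob1, whereas 26.6% of 16888 mouse 3′ UTRs hold it. That share takes no account of length. The median 3′ UTR had 924 nt, against 2504 in Btg2, 2459 in Tob2 and 1829 in both Zfp36l1 and Zfp36l2. Those of Zfp36 (774 nt) and Btg3 (439 nt) were shorter than the median. The first match of each gene is shown with its neighbouring bases, 5′ to 3′ on the gene's strand, TATTTAT in capitals:
Btg2, chr1:134077248-134077277, minus strand: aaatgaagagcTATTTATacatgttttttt
Btg3, chr16:78360040-78360069, minus strand: ttggacttgagTATTTATatattgtgcatt
Tob2, chr15:81849859-81849888, minus strand: tatcacctgctTATTTATgtacgaggttgg
Zfp36, chr7:28376965-28376994, minus strand: agtgggcccttTATTTATgacgactttatt
Zfp36l1, chr12:80108421-80108450, minus strand: ttatcaaaacgTATTTATtgccaaactatg
Zfp36l2, chr17:84184913-84184942, minus strand: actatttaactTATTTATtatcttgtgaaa
The shorter ATTTA was found in all 8 members, from 3 matches in Tob1 (767 nt) and Zfp36 (774 nt) to 11 in Btg1 (4170 nt), and in 64.3% of all 3′ UTRs. The Pumilio element was present 2 times in Btg1 and in no other member, against 23.5% of all 3′ UTRs. TTTTAT, the cytoplasmic polyadenylation element, was found in all 8 members, with 1 to 4 matches each, and in 51.0% of all 3′ UTRs. These matches describe letters in the reference and say nothing of binding.

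Per length of the reading frame, Tob1 had the highest RPF level of the family in 6 of 10 samples and ranged from 25.1 to 69.2 RPKM over all 10. Btg1 was first in both hippocampi (39.7 RPKM adult, 192 embryonic) and Btg2 was first after BDNF (167 RPKM) and after glu/gly (57.8). In adult hippocampus the counting interval of Btg1 (36.4–43.3) overlapped that of Zfp36l1 at 39.2 RPKM (36.9–41.6). With GFP and in adult cortex the interval of Tob1 overlapped that of Btg1. In the unstimulated DIV14 culture the order was Tob1 at 37.7 RPKM (interval 33.2–42.7), Zfp36l1 at 20.8, Btg1 at 18.4, Tob2 at 14.2, Btg2 at 13.1, Zfp36l2 at 12.4 and Zfp36 at 1.37 (0.591–2.7). Counting intervals of neighbours overlapped from Zfp36l1 down to Zfp36l2, so that only Tob1 at the top and Zfp36 at the bottom were set apart. Zfp36 was lowest with GFP at 0.951 RPKM and highest in the embryo at 11.8, and the adult hippocampal RPF library has no row for it. In such bulk samples, fewer cells that express a gene and less RNA per cell cannot be told apart. For most members the RNA-seq levels were spread more widely, on fewer reads. Btg1, Btg2 and Tob1 were each first in 4 of 12 libraries, and Zfp36l1 had a median of 0.509 RPKM over the 11 libraries that listed it. Only with BDNF, with glu/gly and in embryonic hippocampus was the counting interval of the first gene clear of the next.

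BDNF, a neurotrophin that signals through TrkB, raised Btg2 in all 3 assays. Btg2 rose from 5 to 62 RNA-seq reads (9.83 to 129 CPM), from 36 to 409 RPFs (8.3 to 111 CPM) and from 89 to 430 tags (85.4 to 406 CPM). Those are 13.2-fold (interval 5.34–41.9), 13.3-fold (9.47–19.3) and 4.76-fold (3.78–6.05), and the tag fold lay below the RPF interval. Of the members with at least 10 CPM in either library, 2 of 4 were past 2-fold in RNA-seq, against 10.7% of all genes, and 1 of 6 in RPFs, against 1.7%. In RNA-seq the second was Zfp36l2, with 3 reads after 8, a ratio of 0.398 whose interval (0.068–1.66) includes 1. Btg2 and Zfp36l2 reached the 10 CPM minimum in RNA-seq only on their higher side, as did Btg2 in RPFs. The minimum favours such genes, so these counts are a description and no test.

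Tob1, the closest relative of Tob2 and a partner of poly(A)-binding protein, went the same way as Btg2 by a smaller factor. It had 252 RPFs before and 412 after BDNF, a 1.92-fold rise (1.64–2.25), and 84 and 121 tags, 1.42-fold (1.07–1.9), with 25 and 37 RNA-seq reads (1.57-fold, 0.92–2.72). Btg1 RPFs rose 1.75-fold (1.23–2.51), from 55 to 82. Zfp36l1 was the one member whose RPFs fell beyond counting error, from 129 to 77 (0.7-fold, 0.521–0.936). Tob2 (0.886, 0.637–1.23) and Zfp36l2 (0.796, 0.587–1.07) had intervals that include 1, and Zfp36 had 8 and 10 RPFs. In the same RPF libraries the 5 astrocyte markers had a median ratio of 0.694, 5 markers of progenitors and cycling cells 0.64, with Mki67 and Top2a past 2-fold down, and the 6 neuronal markers 1.02, where the median gene stood at 0.97. In RNA-seq astrocyte markers summed to 1980 CPM before and 1570 after BDNF, and progenitor and cycling markers (6 of 6 detected) to 511 and 317, and their part in the members' differences was not tested. All of these comparisons rest on 1 library per side, so a difference is one between those libraries.

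Glu/gly, used to mimic the induction of long-term potentiation, also raised Btg2 in each assay. RNA-seq reads of Btg2 went from 5 to 33 (5.58-fold, 2.17–18.3), RPFs from 36 to 117 (5.01-fold, 3.42–7.5) and tags from 89 to 189 (2.77-fold, 2.14–3.6). Zfp36, the founding member of its family, went from 8 to 19 RPFs (3.66-fold, 1.53–9.67) and from 6 to 14 tags (3.04-fold, 1.1–9.66), with RPF levels under the 10 CPM minimum. Past 2-fold were 2 of 4 members in RNA-seq, against 11.4% of all genes, and 1 of 6 in RPFs, against 1.54%. In RNA-seq these were Btg2, which rose, and Zfp36l2, which fell from 8 reads to 1 (0.106, 0.00238–0.789). Both again reached the 10 CPM minimum only on their higher side, as did Btg2 in RPFs. Zfp36l2 RPFs stood at 0.978 (0.716–1.33). Zfp36l1 RPFs again fell, to 0.67 of the control (0.48–0.923), and Tob2 tags fell from 46 to 16 (0.454-fold, 0.24–0.816) while its RPFs stood at 0.891 (0.621–1.27). Tob1 RPFs were at 1.21 of the control (0.996–1.46) and Btg1 RPFs at 1.4 (0.937–2.09). The RPF medians were 0.868 for astrocyte and 0.631 for progenitor and cycling markers, again with Mki67 and Top2a past 2-fold down, and their part was not tested. BDNF and glu/gly share 1 unstimulated culture, so a deviation of that culture enters both.

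KCl depolarization, which opens voltage-gated calcium channels, gave smaller differences for Btg2. Its RPF level was 10.9 CPM in the unstimulated DIV10 culture, 17.6 after 10 min (1.62-fold, 1.21–2.16) and 18.7 after 30 min (1.72-fold, 1.22–2.4). Its RNA-seq reads numbered 25, 8 and 16, with intervals that include 1 at both times (0.28–1.64 and 0.474–1.85), and its tags 58, 66 and 96. The Btg2 RPF fold after 30 min of KCl thus lay below the intervals of the 30-min BDNF and glu/gly folds, in a culture of another age with another control. Zfp36 had 27 RPFs unstimulated, 45 after 10 min (2.86-fold, 1.74–4.8) and 18 after 30 min in a shallower library (2.07-fold, 1.08–3.9). Fos RPFs rose 2.2-fold after 10 min and 33.8-fold after 30 min.

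Tob1 and Tob2 fell in RNA-seq after KCl without a matching fall in RPFs. Tob1 had 88 RNA-seq reads without KCl, 20 after 10 min and 13 after 30 min, which is 73.9, 37.7 and 16.2 CPM, a ratio of 0.51 (0.297–0.836) and 0.219 (0.112–0.394). Its RPF level stayed between 80.5 and 84.9 CPM at all 3 times, with ratios of 0.948 (0.842–1.07) and 0.95 (0.82–1.1), and its tags were at 0.692 (0.466–1.02) and 0.734 (0.516–1.04). Tob2 had 15, 1 and 2 RNA-seq reads, ratios of 0.15 (0.00355–0.972) and 0.198 (0.0219–0.85), but 1.19 (0.982–1.45) and 0.876 (0.666–1.14) in RPFs. Its tags numbered 21, 17 and 38, with ratios of 0.852 (0.422–1.7) and 1.41 (0.806–2.53). The Tob2 fall was thus seen in RNA-seq alone, on few reads, where Tob2 reached the 10 CPM minimum only without KCl. RNA-seq therefore put 1 of 5 members past 2-fold after 10 min, against 6.45% of all genes, and 2 of 5 after 30 min, against 12.6%, whereas RPFs put 0 of 6 past it at either time, against 4.56% and 4.89%. The remaining members with RPFs had ratios of 0.774 to 1.27, and Zfp36l2 at 30 min (1.27, 1.02–1.57) was the one whose interval left out 1.

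**Figure D1:**
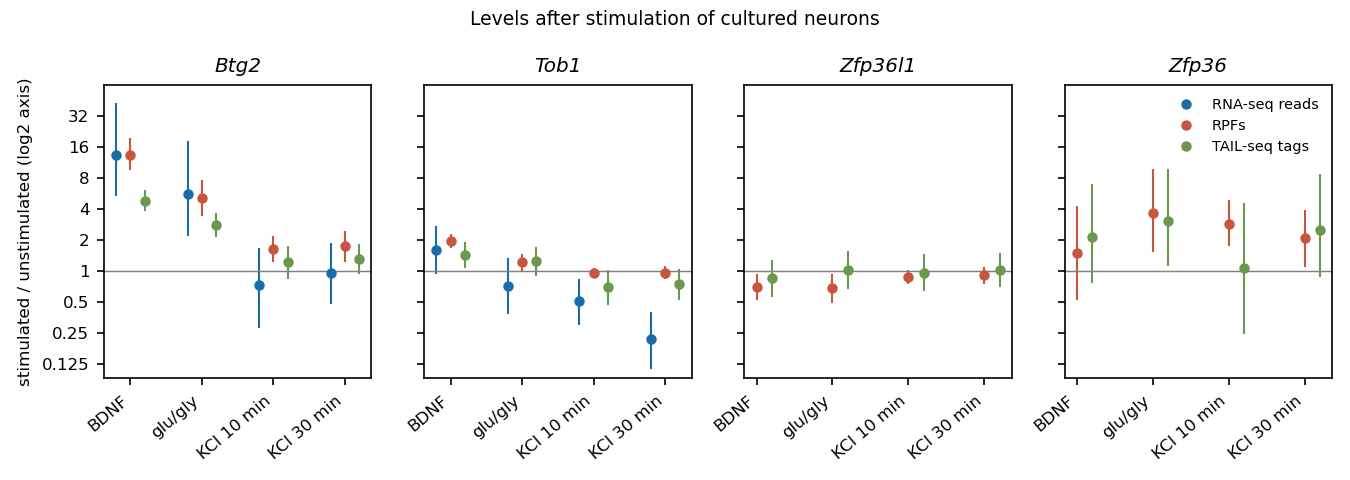
Ratio of stimulated to unstimulated CPM (log2 axis) of Btg2, Tob1, Zfp36l1 and Zfp36 after BDNF, glu/gly and KCl for 10 and 30 min, in RNA-seq reads, RPFs and tail-length tags, with 95% counting intervals and 1 library per point; ratios with fewer than 5 reads in either library are not drawn. Btg2 stands at 13.3-fold in RPFs after BDNF and at 5.01-fold after glu/gly, and Tob1 RNA-seq reads lie at 0.219 after 30 min of KCl while its RPFs lie at 0.95.

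Poly(A) tails of Btg2 and Tob1 were longer after BDNF and after 30 min of KCl. The mean tail of Btg2 went from 121 to 151 nt with BDNF, 29.8 nt longer, at percentile 99.8 of the changes of 4098 genes with 50 or more tags in both libraries, whose median was −1.04 nt. After 30 min of KCl it went from 99.7 to 135 nt, 35.4 nt longer, with 1 of 2815 genes ahead of it (median 2.22 nt). After glu/gly the Btg2 tail went from 121 to 116 nt, a change of −5.1 nt where the median gene changed by −4.68 nt, although Btg2 tags rose 2.77-fold. After 10 min of KCl it was 5.45 nt longer, at percentile 80.1.

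Tob1 had among the shortest tails before stimulation, 90.7 nt at DIV14 (percentile 5.02) and 79.5 nt at DIV10 (percentile 2.96). BDNF brought it to 119 nt, 28.8 nt longer (percentile 99.7 of the changes), and 30 min of KCl to 108 nt, 28.9 nt longer (percentile 99.9), which placed it at percentiles 75.9 and 56.8 of tail lengths. After glu/gly it stood at 92.9 nt, 2.25 nt longer. Tag numbers differed between these cases, since Tob1 tags rose 1.42-fold with BDNF and stood at 0.734 after KCl. Tob2 followed at a minimum of 20 tags, with 18.7 nt more after BDNF (46 and 49 tags) and 29.8 nt more after 30 min of KCl (21 and 38 tags). Zfp36l1 changed by −3.34 nt after BDNF at that minimum and by 8.21 nt after 30 min of KCl (percentile 82.8 at 50 tags). Btg1, Btg3, Zfp36 and Zfp36l2 had at most 16 tags in any culture library and no tail comparison.

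**Figure D2:**
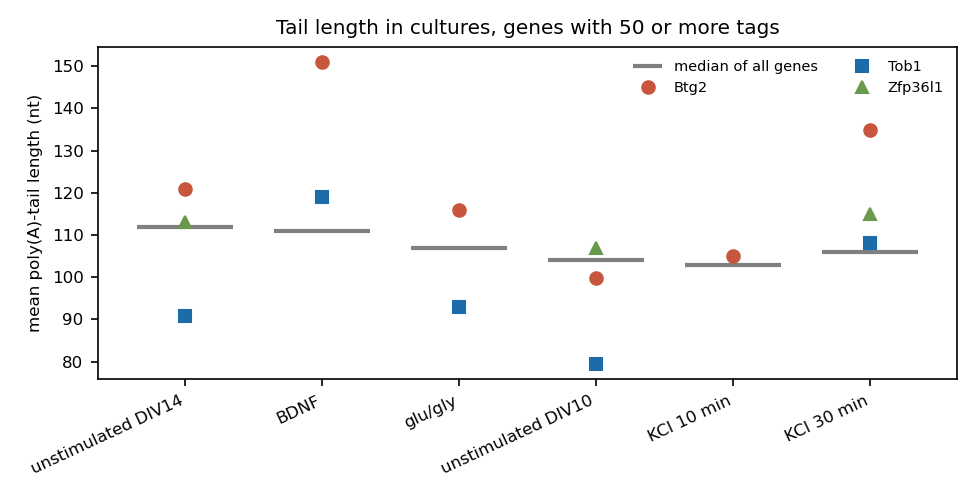
Mean poly(A)-tail length (nt) of Btg2, Tob1 and Zfp36l1 in the 6 culture libraries where a gene had 50 or more tags, 1 library per column, with the median of all such genes as a grey bar. Btg2 stands at 151 nt after BDNF and 135 nt after 30 min of KCl, and Tob1 rises from 90.7 to 119 nt and from 79.5 to 108 nt.

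Translational efficiency (TE), the log2 ratio of RPF to RNA-seq RPM as deposited, could be given for 10 member and sample pairs with at least 10 RPM of RNA. TE of Tob1 was 0.75 above the sample median in unstimulated DIV14 neurons (percentile 78.7), 1.04 above it after BDNF (percentile 85.9), 0.6 above it at DIV10 and 0.16 below it in adult hippocampus (percentile 43.5). Btg2 was within 0.29 of the sample median after BDNF and glu/gly, at percentiles 62.7 and 51.9. In embryonic hippocampus Btg1 (percentile 85.0), Zfp36l1 (78.9) and Tob1 (76.8) were above the median gene and Tob2 was 1.14 below it (percentile 16.9).

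In CPM, a scale that admits more members, RPFs per RNA-seq read were high for Zfp36l1 and, in some samples, for other members. Zfp36l1 had 7.61 RPFs per RNA-seq read in adult hippocampus (5.68–10.4; 1064 RPFs, 47 reads) and 1.45 in embryonic hippocampus (1.26–1.68; 1037 RPFs, 237 reads), where the medians of all genes were 0.892 and 0.925. It had 20.8 (7.07–101) in the unstimulated DIV10 culture and 7.57 (2.05–63.1) at DIV14, on 3 and 2 RNA-seq reads against medians of 0.747 and 0.727, and 7.64 (2.91–28.4) in adult cortex. Its tag levels, 51.8 CPM at DIV14 and 86 at DIV10, stood beside 3.93 and 2.52 CPM of RNA-seq in the same cultures. For Tob1 the ratio was 1.15 (0.922–1.45) in the unstimulated DIV10 culture, 2.14 (1.37–3.53) after 10 min of KCl and 4.98 (2.86–9.5) after 30 min, percentiles 75.5, 92.5 and 98.3, through the lower RNA-seq counts given above. Zfp36l2 was at percentiles 66.8 to 95.5 in 5 samples and Btg2 at 26.1 to 74.9 in 6. Tob2 lay above the median in every culture compared, from 1.43 (0.57–4.6) with GFP to 17.3 (3.07–688) after 10 min of KCl. Its RNA-seq reads there numbered 1 to 15. Tob2 lay below the median in adult hippocampus (0.753), adult cortex (0.697) and embryonic hippocampus (0.421). Zfp36l2 had 15.2 (2.64–608) after glu/gly on 1 RNA-seq read. Zfp36 had 7.98 (4.6–15.1) in embryonic hippocampus, but 0.608 (0.0601–29.9) with GFP.

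**Figure D3:**
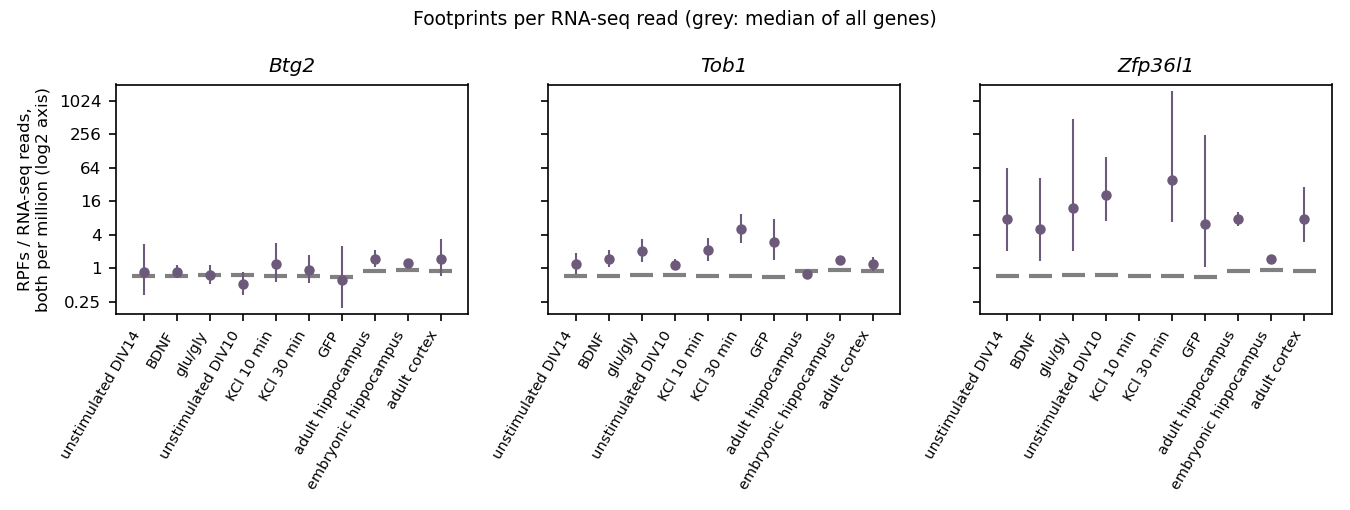
RPFs per RNA-seq read, both in CPM (log2 axis), of Btg2, Tob1 and Zfp36l1 in 10 samples with 95% counting intervals, and the median of all genes as grey bars. Zfp36l1 lies above the median in each sample drawn, at 7.61 in adult and 1.45 in embryonic hippocampus, and Btg2 runs from 0.518 in the unstimulated DIV10 culture (median 0.747) to 1.48 in adult hippocampus (median 0.892); the KCl 10 min point of Zfp36l1 is absent because RNA-seq did not list it there.

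Btg1, Btg2, Tob1 and Zfp36l2 were lower in adult than in embryonic hippocampus in both RNA-seq and RPFs. Btg1, an antiproliferative gene linked to quiescent cells, had 538 RNA-seq reads in the embryonic and 138 in the adult library, 70 and 19 CPM, a ratio of 0.271 (0.223–0.327), and 2619 and 519 RPFs (0.212, 0.193–0.233). Btg2 stood at 0.262 in RNA-seq (0.182–0.371) and 0.317 in RPFs (0.267–0.375). Tob1 stood at 0.687 (0.594–0.794) and 0.388 (0.356–0.422), a larger fall in RPFs than in RNA. Zfp36l2 stood at 0.419 (0.298–0.582) and 0.489 (0.415–0.575).

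Tob2 and Zfp36l1 were lower in adult RNA-seq, and their RPFs were not lower beyond counting error. Zfp36l1 had 237 embryonic and 47 adult RNA-seq reads, a ratio of 0.209 (0.15–0.287), but 1037 and 1064 RPFs, a ratio of 1.1 (1.01–1.2). Tob2 stood at 0.473 (0.372–0.599) in RNA-seq and at 0.846 (0.71–1.01) in RPFs. Zfp36 had 13 embryonic and 12 adult RNA-seq reads (0.975, 0.407–2.32) and 313 RPFs in the embryonic library, and no row in the adult RPF library. Of 10431 genes compared in RPFs, 525 lack a row in 1 of the hippocampal libraries, against 0 of 9300 in the BDNF comparison. Whether such rows had no read or were left out is not given in the sources used here, so no ratio is stated for Zfp36.

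Down past 2-fold were 5 of 6 members in RNA-seq (Btg1, Btg2, Tob2, Zfp36l1 and Zfp36l2), against 27.0% of all genes, and 4 of 6 members listed in both RPF libraries (Btg1, Btg2, Tob1 and Zfp36l2), against 33.8% of such genes. Btg2, Zfp36l1 and Zfp36l2 in RNA-seq and Btg2 in RPFs reached the 10 CPM minimum only in the embryonic library. With absent rows taken as 0 the RPF count was 5 of 7, Zfp36 included, against 33.6%. In either direction 47.9% of genes were past 2-fold in RNA-seq and 60.1% in RPFs, and the median gene stood at 0.825 and 0.797. Cell makeup moved alongside: markers of progenitors and cycling cells (6 of 6 detected) summed to 2490 RNA-seq CPM in the embryonic and 62.8 in the adult library, oligodendrocyte markers (Mog at 0 in the embryo) to 13.7 and 1060, microglial markers to 53.8 and 277, and astrocyte markers to 532 and 2100. Endothelial markers (4 of 4 detected) summed to 85.3 and 30.6, and neuronal markers to 2100 and 5090. Their part in the members' differences was not tested. The adult cortex library had RPF levels of 23.4 RPKM for Btg1, 29.8 for Tob1, 10.2 for Tob2 and 13.5 for Zfp36l1, beside 39.7, 25.1, 8.4 and 39.2 in adult hippocampus. The Btg2 tail, in a column read as the median, was 82 nt in embryonic and 51 nt in adult hippocampus, on 21 and 23 tags, where the median gene was 10.5 nt shorter in the adult.

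**Figure D4:**
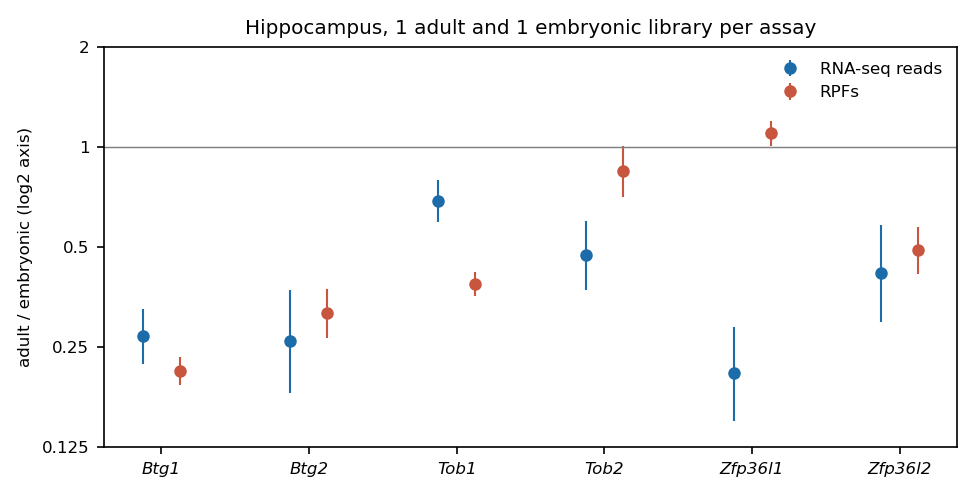
Ratio of adult to embryonic hippocampus (log2 axis), in CPM, for 6 members in RNA-seq and RPFs, 1 library per age and assay, with 95% counting intervals. Btg1, Btg2 and Zfp36l2 lie below 0.5 in both assays, while Zfp36l1 stands at 0.209 in RNA-seq and 1.1 in RPFs.

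In the visual cortex, 1 hour of light left no member called as changed in level. Btg2 had 40.4, 48.8, 161 and 333 CPM in dark mice 1 to 4 and 293, 310, 172 and 124 in light mice 1 to 4. Dark mice 1 and 2 were the lowest of the 8 and dark mouse 4 the highest, so the groups overlapped, with means of 146 ± 137 and 225 ± 91.4 (SD, n = 4 each) and a log2 fold of 0.74 ± 0.41 (SE). The adjusted p with all 8 mice was 0.608 in edgeR and 0.999 in DESeq2. Without dark mouse 4 the log2 fold was 1.56 ± 0.34 and without dark mice 3 and 4 together 2.32 ± 0.27. Btg2 was called in both fits. The fit without dark mice 3 and 4 was unplanned and chosen after values were seen. Both fits remove high Btg2 values from the dark group, so their calls are no test of a rise. With no filter on low counts the log2 fold for all 8 mice was again 0.74. Its SE fell to 0.182, and Btg2 was called (edgeR adjusted p = 0.00694). Fos (log2 fold 3.91 ± 0.42), Egr1 (3.15 ± 0.16), Npas4 (2.84 ± 0.39) and Arc (3.29 ± 0.43) were called with all 8 mice.

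The other members were not called either. Zfp36l1 had 36.6 to 62 CPM in the dark and 50.5 to 75.3 in the light, a log2 fold of 0.41 ± 0.17. Tob1 had 73.4 to 104 and 72.4 to 100 (log2 fold −0.06 ± 0.14), Tob2 37.8 to 50.9 and 35.9 to 70.9 (0.23 ± 0.18), and Zfp36 4.1 to 10.5 and 6.38 to 13.1 (0.36 ± 0.36), with overlap between the groups for each. Without dark mice 3 and 4 the log2 folds were 0.65 ± 0.19 for Zfp36l1, 0.72 ± 0.45 for Zfp36, −0.11 ± 0.16 for Tob1 and 0.11 ± 0.21 for Tob2, none of them called. Of the 5 members with enough tags 0 were called by edgeR at an adjusted p under 0.05, 0 of 7 by DESeq2, and 1 (Zfp36l1) had an unadjusted p under 0.05, against 1.34% of 9554 genes called, of which 116 rose and 12 fell, and 9.45% at an unadjusted p under 0.05. Btg1 and Btg3 had at most 9 tags in a library and Zfp36l2 none in these mice.

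Btg2 and Zfp36l1 had the lowest differences in mean tail, light minus dark, of the genes with 50 or more tags in every library, and neither was called with all 8 mice. The mean tail of Btg2 was 97, 96.4, 112 and 105 nt in dark mice 1 to 4 and 62.2, 76.4, 98.2 and 76.9 nt in light mice 1 to 4. Light mouse 3 alone reached the dark range, and the difference of −24.1 ± 6.68 nt (SE) was the lowest of 4321 genes (percentile 0.0231), whose median change was 3.75 nt. Arc, an immediate-early gene outside that test because 1 library had 44 tags, had a larger difference of −37.5 nt, from 118 ± 11.9 nt in the dark to 80.7 ± 11.7 nt in the light (SD, n = 4 each), without overlap. Zfp36l1 was 130, 114, 96.9 and 98.8 nt in the dark and 81.2, 103, 111 and 92.6 nt in the light, a difference of −12.7 nt at percentile 0.0463, with overlap. Of the 3 members with 50 or more tags in every library 0 were called by limma and 1 (Btg2) had an unadjusted p under 0.05, against 0.231% of genes called, 10 in number, all of them longer in the light, and 3.93% at an unadjusted p under 0.05. The Btg2 difference was called without light mouse 3 alone (−30.7 nt, limma adjusted p = 0.016). It was −18.7 nt without light mouse 1 (0.674) and −21.1 nt without dark mouse 3 (0.877), and over all fits that left out 1 mouse it ran from −30.7 to −18.7 nt. Without dark mice 3 and 4 it was −18.3 nt, that of Zfp36l1 −24.6 nt and that of Tob1 −2.5 nt (limma adjusted p = 1.0 for each). The SE is the same for every gene because limma estimated 1 common variance.

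Libraries differed in tail length as a whole, with medians of 92.4, 90.7, 77.5 and 80 nt in the dark mice and 83.3, 94.1, 97.5 and 81.7 nt in the light mice. Taken as a difference from its own library's median, Btg2 lay 4.63, 5.71, 34.1 and 25.1 nt above it in the dark and at −21.1, −17.8, 0.704 and −4.84 nt in the light, so that the groups no longer overlapped. Dark mice 3 and 4, with the highest Btg2 CPM of the dark mice, also had its longest tails by this measure. Zfp36l1 likewise lay 18.8 to 37.1 nt above the median in the dark and −2.18 to 14 nt from it in the light, without overlap. The share of all genes without overlap was not counted on either scale. Whether such a separation is unusual is therefore not known. In the limma fit on this scale neither was called, with −28.1 nt for Btg2 (adjusted p = 0.219) and −16.7 nt for Zfp36l1 (adjusted p = 0.227). Tob1 (−21.8 to −13.5 nt in the dark, −38.1 to 1.01 nt in the light) and Tob2 (−8.4 to 15.7 nt and −14.5 to −3.12 nt, with 47 tags in 1 library) overlapped. This scale was chosen after the library medians were seen.

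**Figure D5:**
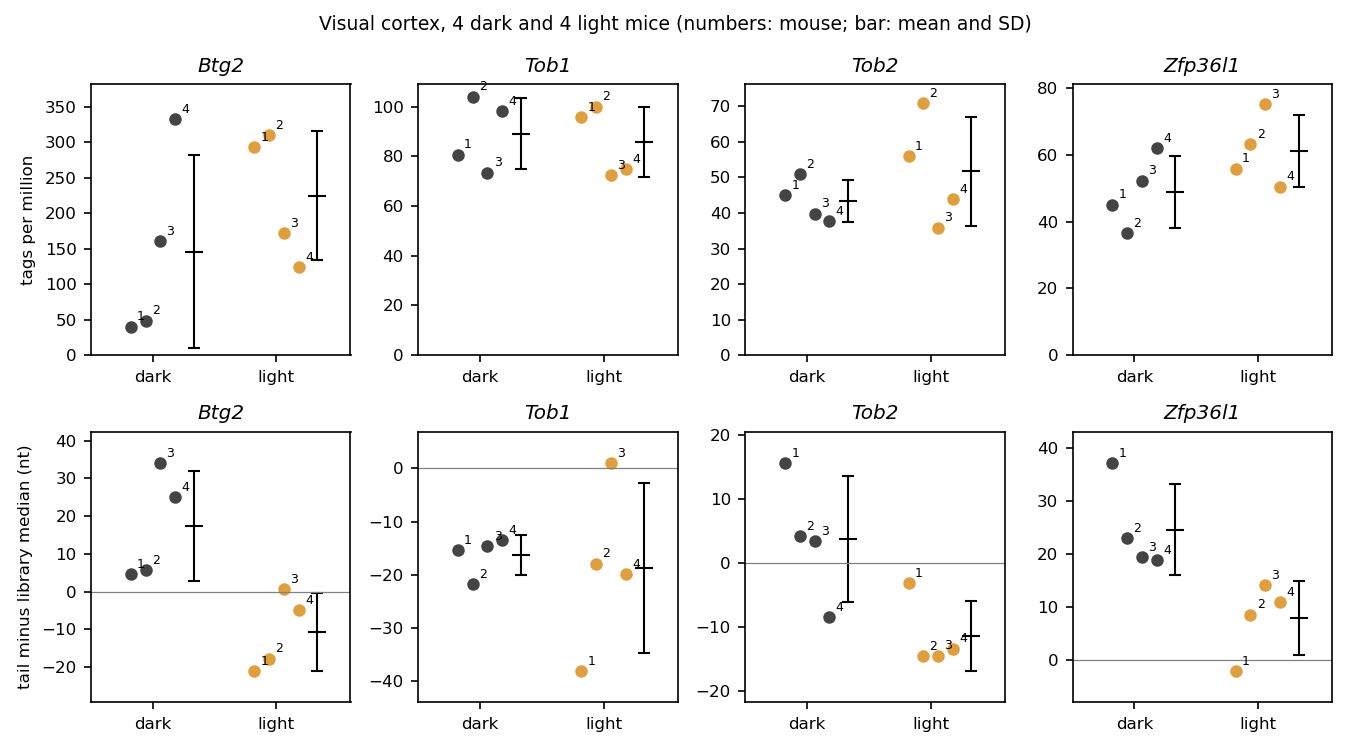
Tag CPM (upper row) and mean tail length minus the median of the library (nt, lower row) of Btg2, Tob1, Tob2 and Zfp36l1 in 4 dark and 4 light mice, numbered by mouse, with the mean and SD of each group. Btg2 tags of dark mice 3 and 4 (161 and 333) reach the range of the light mice, and its relative tail is positive in each dark mouse and at most 0.704 nt in the light.

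The Btg2 tail thus differed in opposite directions after BDNF or 30 min of KCl and after 1 hour of light, where it was not called. The Btg2 tail was 29.8 nt longer after BDNF, with a 4.76-fold gain in tags, whereas the light mice had a tail 24.1 nt shorter and mean tags 1.54 times those of the dark mice. Times, tissue and tail assay all differ between these experiments, so the difference between them was not tested.

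No subunit of the deadenylase that these proteins recruit was called in level in the same mice. Of 12 subunits tested of the 14 of CCR4-NOT, PAN2-PAN3 and PARN, 0 were called in level by edgeR or DESeq2 and 0 had an unadjusted p under 0.05, with log2 folds of 0.07 ± 0.11 for Cnot7 and −0.18 ± 0.14 for Cnot8, the nucleases that BTG and TOB proteins bind. Of 15 other recruiters and tail-binding partners, 1 was called: Tnrc6c, a GW182 protein that links Argonaute to deadenylases, rose by a log2 fold of 0.79 ± 0.16 (edgeR adjusted p = 0.00644), and 3 had an unadjusted p under 0.05 (Cpeb3, Cpeb4 and Tnrc6c), where 9.45% of all genes did. Of 10 AU-rich element binders and regulators 0 were called and 0 had an unadjusted p under 0.05. Of 9 decapping and decay factors 0 were called by edgeR and 2 had an unadjusted p under 0.05, among them Pnrc1, at 0.46 ± 0.12 (edgeR adjusted p = 0.0547), which DESeq2 called. Markers of neurons (6 tested), astrocytes (5), microglia (5) and oligodendrocytes (4) had 0 calls in level in either tool, 3 of them with an unadjusted p under 0.05, and in tail length Mbp, a myelin gene, was the 1 listed gene called (27.1 nt longer, limma adjusted p = 0.0372).

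In RPFs no gene of the pathway lists was past 2-fold with BDNF or with glu/gly, where 1.7% and 1.54% of all genes were. Compared were 13 and 14 deadenylase subunits, 15 other recruiters, 10 AU-rich element binders and regulators, and 10 decapping factors. The largest changes with BDNF were Cnot11 (0.675) and Cnot7 (1.37) among the subunits, Cpeb1 (0.641) and Samd4b (0.844) among the recruiters, Mapkapk2 (0.576) and Elavl2 (1.22) among the binders and regulators, and Patl1 (0.776) and Dcp1b (0.831) among the decapping factors. With glu/gly they were Pan2 (1.68) and Cnot6 (1.66), Cpeb1 (0.637) and Pabpc1 (0.733), Mapkapk2 (0.514) and Hnrnpd (0.761), and Patl1 (1.32) and Pnrc1 (0.757). In RNA-seq 1 gene of these lists, Dcp1b, was past 2-fold with each stimulus, on 11 reads against 3 in the control. Of all genes 10.7% were past it with BDNF and 11.4% with glu/gly. Dcp1b stood at 3.89-fold (1.03–21.7) with BDNF and 3.1-fold (0.819–17.3) with glu/gly.

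After 10 min of KCl the RPFs of Rc3h2, a Roquin protein that recruits deadenylase to stem-loops, stood at 0.31 of the control (0.246–0.386) and those of Dcp1b, a decapping cofactor, at 2.25 (1.62–3.13). Cnot7 (0.5, 0.389–0.637), Cnot6 (0.503), Cpeb1 (0.536), Mapkapk2 (0.502), Mapk14 (0.744) and Lsm1 (0.633) followed in their lists. After 30 min the listed changes were Cnot6 (0.644), Cnot8 (1.4), Rc3h2 (0.354), Pabpc1 (0.598), Mapkapk2 (0.496), Elavl3 (0.681), Dcp1b (1.55) and Pnrc1 (1.53). Mapkapk2, the kinase that phosphorylates Zfp36 and weakens its recruitment of CCR4-NOT, had intervals below 1 in all 4 comparisons, from 0.411–0.8 with BDNF to 0.364–0.665 after 30 min of KCl, and these comparisons share their controls in pairs.

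In the miRNA cultures no difference of a member's RNA-seq or tag level from the GFP culture was detectable at this depth. Btg2 had 17 RNA-seq reads with miR-1 and 4 with GFP (1.97-fold, 0.641–8.03), and 33 and 24 tags (1.2-fold, 0.688–2.12). Past 2-fold were 0 of 3 members with miR-1, against 11.6% of genes, and 2 of 4 with miR-155, against 8.27%: Tob1 (66 against 7 reads, 2.0-fold, 0.919–5.17) and Tob2 (8 against 5 reads, 0.34-fold, 0.0979–1.32), both with intervals that include 1. Tob2 reached the 10 CPM minimum only in the GFP culture. The mature sequence of miR-155 is shown with its seed, bases 2 to 8, in capitals, and below it the one match to that seed in the 3′ UTRs of the members, AGCATTA, which 7.95% of all 3′ UTRs hold:
mmu-miR-155-5p: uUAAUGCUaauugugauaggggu
Btg1, chr10:96620855-96620884, plus strand: atttgagtttgAGCATTAtatcccaggctg
Btg1 itself had 27 reads with miR-155 and 3 with GFP, 1.91-fold (0.588–9.84), and no tag with miR-155. Mean tails of Btg2 at a minimum of 20 tags were 102 nt with miR-1 and 104 nt with miR-155 against 127 nt with the shared GFP control, on 24 to 33 tags each. The changes were −24.4 nt with miR-1 (percentile 2.67 of 3863 genes, median −2.53 nt) and −22.3 nt with miR-155 (percentile 2.95 of 3965, median −0.767 nt). Both rest on the same GFP library.

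Across the 12 RNA-seq libraries, the genes whose levels were most like Btg2 were Ier2 (Pearson r = 0.921), Gadd45g (0.9) and Dnajb1 as the next, of 8815 genes. Ier2 is an immediate-early gene, Gadd45g a growth-arrest and stress gene, and Dnajb1 a heat-shock cochaperone. For Tob1 they were Slc39a9 (0.941), Lmo4 (0.932) and Ptdss2 (0.931), for Tob2 Ipo8 (0.954), Tab3 (0.952) and Abtb2 (0.946), for Btg1 Lsm14b (0.967), Gramd1a (0.963) and Hnrnpu (0.962), and for Zfp36l1 Zswim5 (0.978), Dph2 (0.976) and Cep250 (0.976). Zfp36l1 had 14.2 RPM in embryonic hippocampus, 2.39 in adult hippocampus and at most 0.915 in any other library. Its likeness therefore rests mainly on the embryonic library. These are descriptions over libraries that share cultures, tissues and depth.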

How the data were processed

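RNA-seq and RPF files hold, per RefSeq accession, deposited counts of reads on the reading frame and the authors' RPM, from which RPKM was computed with the deposited frame length. Tail files hold deposited counts of tags and mean or median tail lengths in nt (score), called by the authors with a hidden Markov model after STAR alignment to mm10 and bedtools intersection. The submitters' processing notes give STAR 2.4.2 for all libraries, whereas the methods name a later version for tails. Hippocampal tail files have no header, and their tail column was read as a median because all its values are in steps of 0.5 nt. The authors' table of the whole series gives log2 TE per sample as deposited. RNA of hippocampi was poly(A)-selected, that of other samples rRNA-depleted where stated. The first 50 nt of each reading frame were left out by the authors. Rows that name no gene, up to 19.0% of tags and 3.33% in visual cortex, were left out, and the deposited RPM sum over genes to 13.8 to 46.1% of their full scale in RNA-seq and 51.3 to 79.5% in RPFs, so levels were recomputed as CPM of reads on genes.

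Members and gene lists were chosen with earlier results of these data known. Accessions were matched to RefSeq GRCm38.p6 symbols (17010 of 17158 matched), and no member had more than 1 accession. Visual-cortex counts were tested with edgeR 4.0.16 quasi-likelihood (TMM, filterByExpr) and mean tails with limma 3.58.1 (50 or more tags in all 8 libraries), Benjamini-Hochberg over all genes, called at adjusted p under 0.05. Both were tested on simulated data. Other comparisons have 1 library per side and no test: genes with 10 CPM in either library and a 2-fold difference are past 2-fold. A gene near that minimum can enter through its higher library alone, so counts of members past 2-fold are descriptions. Genes absent from a file were taken as 0 except where stated. Alternatives were DESeq2 1.42.0, TMM, other minimums, leaving out mice, a replicate block and other scales. Named pathway genes are those called in the light and the 2 largest RPF changes per list and stimulus. Likeness used log2(RPM + 1). Replicates of the visual cortex are separate mice, and no pair of libraries agreed within sampling noise (12 pairs). R 4.3.3 and Python 3.11.15 were used. Promoters and miR-155 came from RefSeq tables and 3′ UTRs from the RefSeq annotation of GRCm38.p6, where Zfp36l2 (promoter) and miR-1 have no entry. The family members Btg4 and Zfp36l3 were not analysed.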

Additional observations from a re-analysis of the deposited data

How the results depend on the processing

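Intervals of single libraries cover counting error only, and culture or tissue differences have no replicate check. In the visual cortex the count of genes called in level was 126 with DESeq2, 192 with no low-count filter and 100 to 150 when 1 mouse was left out. Members called were 1 (Btg2) with no low-count filter and 1 without dark mice 3 and 4, an unplanned fit chosen after values were seen. They were 0 to 1 when 1 mouse was left out, the 1 being without dark mouse 4. The Btg2 log2 fold ranged from 0.38 to 1.56 in those fits. Genes called in tail length fell from 10 to 1 on the log2 scale, to 3 with library medians subtracted and to 1 without dark mice 3 and 4, and ranged from 1 to 21 when 1 mouse was left out. Members called in tail length were 0 to 1, Btg2 without light mouse 3 (−30.7 nt). The sign of Tob1 was not fixed: its level turned to 0.06, 0.02 and 0.01 without dark mouse 2, light mouse 3 and light mouse 4, within −0.13 to 0.06, and its tail to −0.02 on the log2 scale, −0.351, −0.281 and −7.71 nt without dark mouse 3, light mouse 2 and light mouse 3, within −7.71 to 10.0 nt, −2.39 nt with medians subtracted and −2.5 nt without dark mice 3 and 4. The cause was not tested.

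Mouse numbers are no pairing: same-numbered mice deviated together with correlations of −0.2 to 0.12 in level and −0.11 to 0.04 in tail. With a replicate block 113 genes were called in level, 1 in tail length and 0 members in either.

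Members past 2-fold in RNA-seq numbered 14 over 7 comparisons, 6 by deposited RPM and 23 with no minimum. The sum counts the same genes again over comparisons that share controls. Of the 14, 5 come from hippocampus, where 47.9% of all genes were past 2-fold. Shares of all genes under the alternatives are not given, so these counts show only how the calls move. For BDNF (2) there was 1 in RPFs and 1 by RPM. For glu/gly (2) there was 1 in RPFs, 1 by RPM and 4 with no minimum. For 10 min of KCl (1) there were 0 by tags, RPFs or RPM, 3 with no minimum and 2 at 1.5-fold. For 30 min of KCl (2) there were 1 by tags, 0 in RPFs and 1 by RPM. For miR-1 (0) there were 1 by tags, 1 with TMM, 2 with no minimum and 3 at 1.5-fold. For miR-155 (2) there were 1 by tags and 0 by RPM. For adult hippocampus (5) there were 3 by tags and 3 by RPM. RPM needs 10 RPM, which fewer genes reach. TE could be given for 36 pairs of member and sample in CPM and for 1 at 30 RPM, against 10, and tail changes for 19 at 20 tags against 8 at 50.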

Other observations

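The labels of 2 RPF libraries of the miRNA cultures contradict each other, so these were placed in no group. They held 817114 and 6428048 reads on genes. Tob1 had 58.7 and 47.9 RPF CPM in them and 46.8 in the GFP culture, Btg2 8.57 and 6.07 against 5.42, and Btg1 12.2 and 13.8 against 14.6. Tob2 had 9.79 and 17.4 against 15.9, Zfp36l1 8.57 and 12.6 against 13.9, and Zfp36l2 12.2 and 9.18 against 13.2. Zfp36 had 1 and 5 RPFs in all. No member was above the GFP culture by its 95% counting interval.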
